A study of Mus musculus with 6 samples.

Results

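The genes that build the extracellular matrix of Flk1+ mesoderm were followed over 6 Affymetrix mouse arrays: collagens, laminin chains and the glycoproteins that join them. Members were taken by gene symbol and not by their values: every collagen chain, every laminin chain, and 11 further genes (Fn1, Hapln1, Has2, Vcan, Nid1, Nid2, Hspg2, Sparc, Fbn2, Postn and Tnc). They were read by 131 of the 45101 probe sets of the array, for 63 of 18194 genes with a single symbol, 42 of them collagens and 10 laminins. Of the 63, 46 passed the filter on low values and stood among the 12923 genes tested. The other 17 failed that filter, among them Col3a1 and Postn, which were dim on all 6 arrays.

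Mouse embryonic stem (ES) cells were differentiated into embryoid bodies, and mesoderm with the receptor Flk1 (gene Kdr) on its surface was sorted on day 4. Scl, encoded by Tal1, binds DNA as a helix-loop-helix protein and is required for blood formation. The SclKO group (n = 2 arrays) was derived from SclKO mESC of the J1 line, strain 129S4/SvJae. The WT Scl+ (n = 2) and WT Scl- (n = 2) groups came from WT hCD4 Scl reporter mESC of the R1 line, whose background is the F1 cross (129/Sv x 129/Sv-CP)F1, in which human CD4 is knocked in at Scl. WT Scl+ cells were Flk1+hCD4+ and WT Scl- cells Flk1+hCD4-. The sample titles call the SclKO cells Flk+Scl-, whereas the sorting protocol collects them by Flk1 alone. Knockout, ES line and sort gate cannot be told apart. The sources used here do not state whether the 2 arrays of a group came from separate cultures, and p-values then measure the spread between arrays, which may be technical.

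Matrix proteins fall into layers. Basement membranes are thin sheets beneath endothelium and epithelium, made of a laminin network and a collagen IV network that nidogens and perlecan tie together. Interstitial matrix holds fibrillar collagens, fibronectin and fibrillins, and hyaluronan with versican and link protein fills the space between cells. Early embryos rely on laminin, fibronectin and hyaluronan before fibrillar collagens become abundant, and developing vessels lay down a basement membrane of their own.

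Levels are natural logs of the deposited values, and differences are in log units. A difference of 1 log unit stands for 2-fold if those logs are RMA values in log2, and for 2.72-fold if the deposited values are linear. Folds are given in that order. The ceiling of a scanner is 65535, yet every array held at least 1040 larger deposited values, and the highest was 2822995. Their natural logs ran from 1.18 to 14.85. Linear intensities would not normally pass that ceiling, so the linear reading is the less likely and its folds are probably too large. A value below the 40th percentile of its array (4.54 to 4.59) is called dim. Levels of different genes come from different probes and were not set against each other. Tal1 was at 5.71 and 6.14 in SclKO, 8.65 and 8.78 in WT Scl+, and 6.52 and 7.97 in WT Scl-, so WT Scl- replicate 2 lay closer to WT Scl+ than replicate 1 did. Kdr lay between 10.83 and 11.35 on all 6 arrays. WT Scl+ replicate 2 stood apart from the rest, at 50.5 on a first principal component that put the other arrays between -25.8 and 10.8. In bulk samples fewer cells of a type and less RNA per cell cannot be told apart. The comparisons share arrays, so their values for a gene are not independent.

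Members differed widely in how far their group means lay apart, and in the gaps between replicates. For 10 of the 46 tested members (21.7%) the group means spanned more than 1 log unit, against 5.46% of all genes tested, and the median span was 0.44 log units for members and 0.29 for all genes. For 25 members the span was under 0.5 log units. The replicates of WT Scl+ differed by more than 1 log unit for 5 members (10.9%, against 5.58% of all genes), those of SclKO for 3 (6.52%, against 1.03%) and those of WT Scl- for 2 (4.35%, against 1.97%). The group with the highest mean was SclKO for 21 members, WT Scl+ for 19 and WT Scl- for 6, a count not made over all genes. Col4a6 is among the 10, the 5 and the 21. It passed the filter through SclKO alone, and its WT values were all dim. Col5a2 is also among the 10 and the 21, with both WT Scl- arrays and 1 SclKO array dim.

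**Figure D1:**
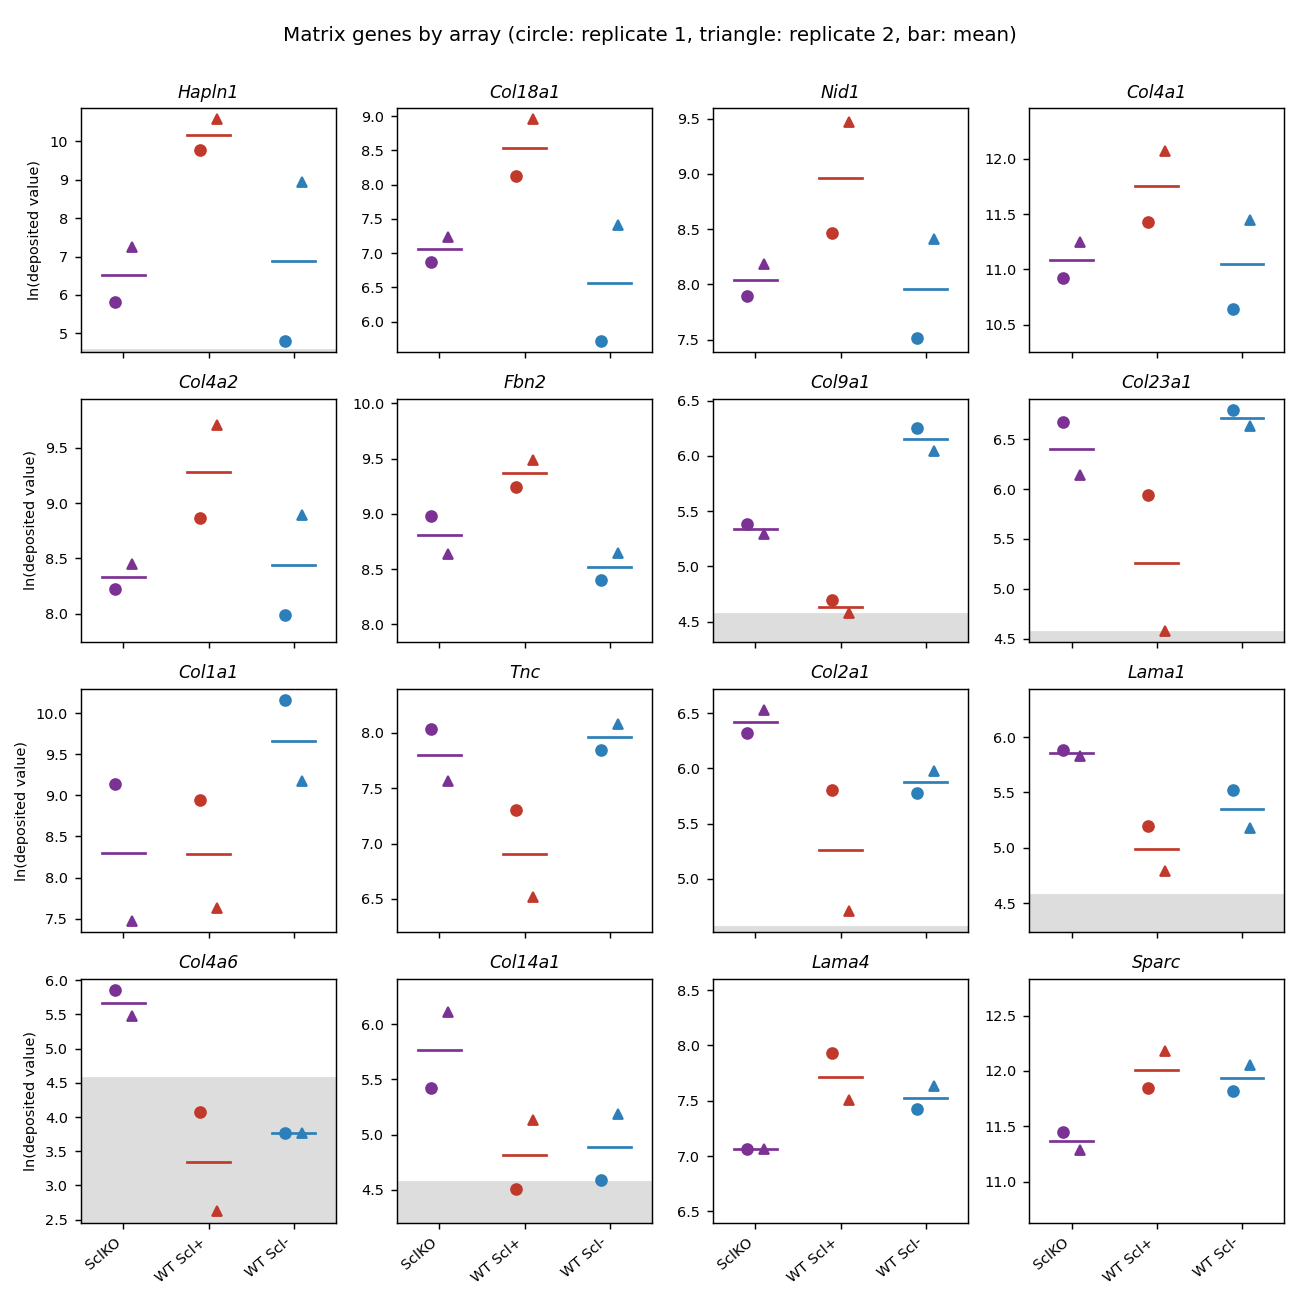
Level of 16 matrix genes (natural log of the deposited value, with its own axis range per gene) in SclKO, WT Scl+ and WT Scl-; circles are replicate 1, triangles replicate 2, bars the mean of 2 arrays, and the grey zone is dim. Hapln1, Col18a1, Nid1, Col4a1, Col4a2 and Fbn2 have their highest mean in WT Scl+, and Col4a6 lies above the grey zone in SclKO alone.

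In the hyaluronan matrix, Hapln1 had the widest span of all tested members. It encodes the link protein that fastens versican-type proteoglycans to hyaluronan. Its level was 5.81 and 7.24 in SclKO, 9.78 and 10.57 in WT Scl+, and 4.81 and 8.95 in WT Scl-. Both WT Scl+ arrays lay above every other array, and WT Scl- replicate 2 lay far above replicate 1. WT Scl+ exceeded WT Scl- by 3.30 log units (SE 1.27, 9.83-fold or 27.0-fold), with a limma adjusted p = 0.51. This difference was 1.23 without WT Scl- replicate 1 and 5.36 without replicate 2. SclKO was lower than WT Scl+ by mean, at -3.65 log units (SE 1.27, 12.6-fold or 38.6-fold, limma adjusted p = 0.30). SclKO overlapped WT Scl-. All 4 Hapln1 probe sets gave the same signs, with 3.27 to 3.81 log units for WT Scl+ against WT Scl- and -4.31 to -3.65 for SclKO against WT Scl+.

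The other genes of this matrix differed less between groups. Has2, the main hyaluronan synthase of the early embryo, was at 9.42 and 9.10 in SclKO, 9.49 and 9.46 in WT Scl+, and 9.01 and 9.00 in WT Scl-. Its WT Scl+ arrays lay above the WT Scl- arrays, by 0.47 log units (SE 0.16, limma adjusted p = 0.482). Vcan, the versican proteoglycan that binds hyaluronan, was at 9.31 and 8.99 in SclKO, 9.65 and 9.39 in WT Scl+, and 9.21 and 9.50 in WT Scl-. The WT groups overlapped for Vcan.

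In the basement membrane, Col18a1, Nid1, Col4a1 and Col4a2 had their highest group mean in WT Scl+. Col18a1 encodes collagen XVIII, a basement membrane collagen with heparan sulfate chains whose C-terminal fragment is endostatin. It was at 6.87 and 7.24 in SclKO, 8.12 and 8.95 in WT Scl+, and 5.72 and 7.41 in WT Scl-. Both WT Scl+ arrays lay above the others, by 1.97 log units over WT Scl- (SE 0.56, 3.91-fold or 7.16-fold, limma adjusted p = 0.418). That difference was 1.13 without WT Scl- replicate 1 and 1.55 without WT Scl+ replicate 2. SclKO differed from WT Scl+ by -1.48 log units (SE 0.56, limma adjusted p = 0.33).

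Nid1, which links laminin to collagen IV, was at 7.89 and 8.19 in SclKO, 8.46 and 9.47 in WT Scl+, and 7.52 and 8.41 in WT Scl-. The gap between WT Scl+ replicate 1 and WT Scl- replicate 2 was narrow. WT Scl+ exceeded WT Scl- by 1.00 log unit (SE 0.42, limma adjusted p = 0.542), which was 0.50 without WT Scl+ replicate 2 and 0.56 without WT Scl- replicate 1. SclKO differed from WT Scl+ by -0.93 log units (SE 0.42), by -0.42 without WT Scl+ replicate 2 and by -0.59 over the mean of its probe sets.

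Col4a1 and Col4a2 encode the chains of the collagen IV network found in most basement membranes. Col4a1 was at 10.92 and 11.25 in SclKO, 11.43 and 12.07 in WT Scl+, and 10.65 and 11.45 in WT Scl-. Col4a2 was at 8.22 and 8.45 in SclKO, 8.86 and 9.71 in WT Scl+, and 7.99 and 8.89 in WT Scl-. For both genes WT Scl- replicate 2 reached into the range of WT Scl+, and SclKO lay below both WT Scl+ arrays. WT Scl+ against WT Scl- gave 0.70 (SE 0.33) for Col4a1 and 0.85 log units (SE 0.38) for Col4a2, and SclKO against WT Scl+ gave -0.67 and -0.95. Without WT Scl- replicate 1 the first pair was 0.30 and 0.39, and without WT Scl+ replicate 2 it was 0.39 and 0.42. The second pair was -0.35 and -0.53 without WT Scl+ replicate 2.

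Fbn2, which encodes fibrillin-2 of embryonic microfibrils, had the same order of means at WT Scl+ with tighter replicates. It was at 8.98 and 8.64 in SclKO, 9.25 and 9.48 in WT Scl+, and 8.40 and 8.64 in WT Scl-. WT Scl+ lay above both other groups, by 0.84 log units over WT Scl- (SE 0.19, limma adjusted p = 0.399), and by 0.72 without WT Scl- replicate 1 or without WT Scl+ replicate 2. SclKO differed from WT Scl+ by -0.56 log units (SE 0.19).

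Endothelial markers varied with these genes from array to array. The mean level of 7 markers, of which Emcn was dim on every array, was 5.12 and 6.00 in SclKO, 7.02 and 7.56 in WT Scl+, and 4.76 and 6.47 in WT Scl-. As for Hapln1, Col18a1, Nid1, Col4a1 and Col4a2, WT Scl+ replicate 2 was the highest array and WT Scl- replicate 1 the lowest. The 5 primitive blood markers averaged 4.75 and 4.98 in SclKO, 7.42 and 6.62 in WT Scl+, and 4.96 and 5.57 in WT Scl-. Visceral and parietal endoderm, which lays down much basement membrane, was read by 11 markers, of which Amn and Plat were dim on every array. They averaged 5.10 and 5.19 in SclKO, 5.33 and 5.25 in WT Scl+, and 4.88 and 5.01 in WT Scl-, with both WT Scl+ arrays highest. For WT Scl+ against WT Scl- 5 of their 7 tested genes were positive (against 46.1% of all genes). Of these genes 4 were higher without overlap (against 18.9%). Sox17 (1.51 log units) and Thbd (1.28) differed most, and the order of the list means leans on them. Apoa1 gave 0.58, Foxa2 0.41 and Ttr 0.28, while Dab2 (-0.42) and Hnf4a (-0.13) went the other way. The part of these 3 cell types in the matrix values was not tested.

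**Figure D2:**
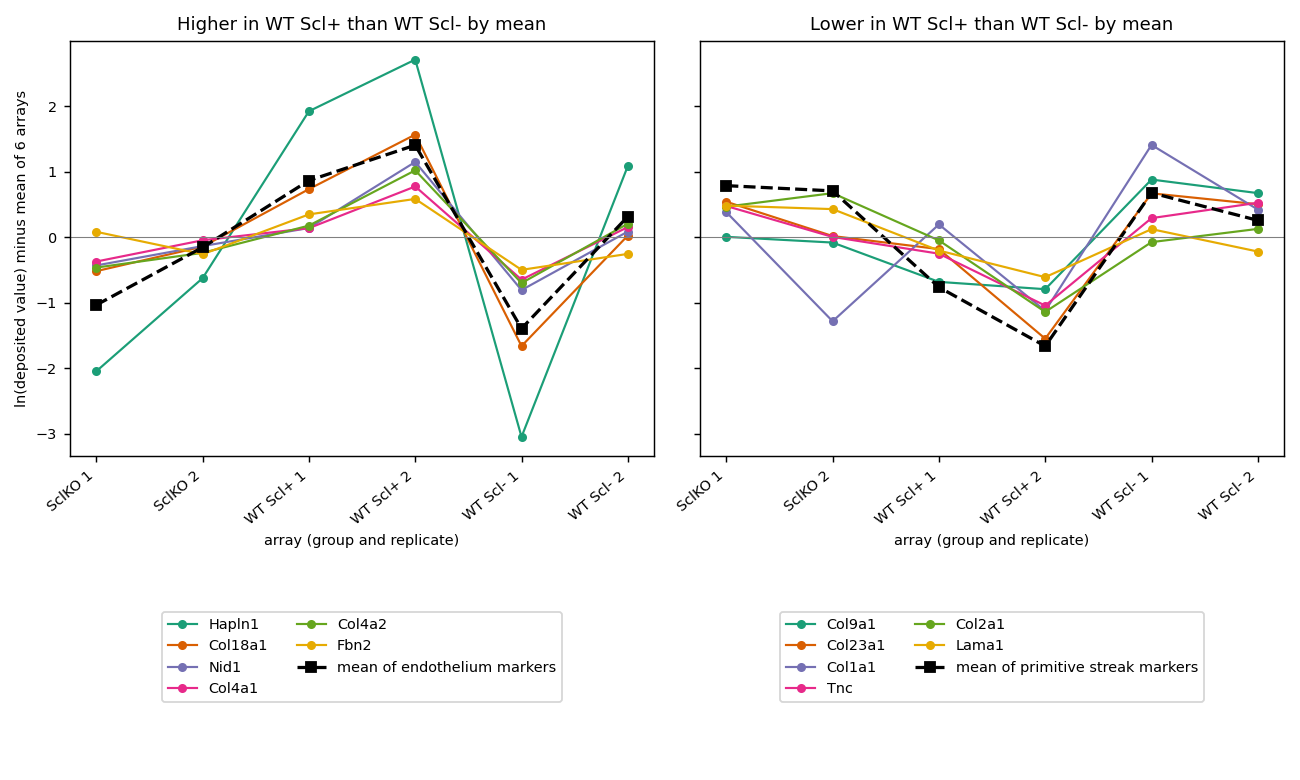
Deviation of each gene from its mean over the 6 arrays (natural log units), by array; coloured lines are members with the highest (left) or lowest (right) mean in WT Scl+ of the WT groups, and the dashed line is the mean of the endothelium or primitive streak markers. At left most lines peak on WT Scl+ replicate 2 and dip on WT Scl- replicate 1; at right most are lowest on WT Scl+ replicate 2.

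The promoters of the genes highest in WT Scl+ are shown because these genes varied together from array to array. Each sequence is the 250 bases before a RefSeq start on GRCm38.p6, written 5′ to 3′ in the direction of transcription, with GGGCGG or its complement CCGCCC, the GC box bound by Sp1-type factors, in capitals. They are Hapln1 (chr13:89540386-89540635, plus strand), Col18a1 from both of its starts (chr10:77166531-77166780, minus strand, and chr10:77113706-77113955, minus strand) and Nid1 (chr13:13437352-13437601, plus strand).
Hapln1: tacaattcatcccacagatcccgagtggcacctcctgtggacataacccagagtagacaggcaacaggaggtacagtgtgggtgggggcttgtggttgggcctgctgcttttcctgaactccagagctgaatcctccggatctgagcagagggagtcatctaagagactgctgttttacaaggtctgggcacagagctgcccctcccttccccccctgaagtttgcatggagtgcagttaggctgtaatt
Col18a1 upstream start: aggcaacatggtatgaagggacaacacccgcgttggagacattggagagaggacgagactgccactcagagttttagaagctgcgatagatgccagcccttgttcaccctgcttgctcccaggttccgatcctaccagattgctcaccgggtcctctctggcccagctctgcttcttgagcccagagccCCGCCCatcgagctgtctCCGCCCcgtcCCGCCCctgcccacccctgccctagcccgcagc
Col18a1 downstream start: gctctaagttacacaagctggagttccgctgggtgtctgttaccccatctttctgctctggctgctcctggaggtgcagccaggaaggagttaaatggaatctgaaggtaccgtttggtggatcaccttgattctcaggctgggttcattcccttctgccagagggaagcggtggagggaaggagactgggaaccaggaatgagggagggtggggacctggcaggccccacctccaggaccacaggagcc
Nid1: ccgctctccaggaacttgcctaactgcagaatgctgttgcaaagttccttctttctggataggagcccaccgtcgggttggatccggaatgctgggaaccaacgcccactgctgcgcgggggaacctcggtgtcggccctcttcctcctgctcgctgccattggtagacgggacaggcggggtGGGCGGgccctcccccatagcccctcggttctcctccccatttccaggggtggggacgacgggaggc
The upstream Col18a1 window carries 3 GC boxes and the Nid1 window 1. Col4a1 and Col4a2 lie on opposite strands of chromosome 8 with starts 21 bases apart, and their transcripts overlap at the first bases. In their upstream windows, not printed, Col4a1 has 0 GC boxes and Col4a2 2. None of these windows holds CANNTG, the E-box read by basic helix-loop-helix factors, or GATAA, the core of GATA sites, on either strand. Windows were found for 45 of the 63 members, 51 in all. CANNTG stood in 28 of the 51 (54.9%), against 66.2% of all 32851 windows, and GATAA in 6 (11.8%, against 22.6%). GGGCGG stood in 28 (54.9%, against 32.7%). A match is a run of letters and says nothing about binding.

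Lamb1 and Lamc1, the beta and gamma chains shared by most laminins, and Lama5, an alpha chain of mature basement membranes, had group means that spanned 0.04, 0.19 and 0.28 log units on their brightest probe sets. Lamb1 was at 10.15 and 10.07 in SclKO, 10.17 and 10.03 in WT Scl+, and 10.02 and 10.11 in WT Scl-. Lamc1 was at 8.85 and 8.57 in SclKO, 8.82 and 8.49 in WT Scl+, and 8.30 and 8.75 in WT Scl-. The 3 groups overlapped for both. The other tested Lamb1 probe sets did not match the brightest, with -0.44 and -0.48 log units for WT Scl+ against WT Scl-, each lower without overlap, and 0.51 and 0.49 for SclKO against WT Scl+. Lama5 was at 7.86 and 7.98 in SclKO, 7.96 and 7.84 in WT Scl+, and 7.50 and 7.77 in WT Scl-, with WT Scl- below the others.

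Nid2, the second nidogen, was at 8.97 and 8.90 in SclKO, 8.78 and 8.64 in WT Scl+, and 8.82 and 8.74 in WT Scl-. Hspg2, which encodes perlecan, was at 8.25 and 8.17 in SclKO, 8.20 and 8.30 in WT Scl+, and 7.97 and 8.17 in WT Scl-. Both nidogens bind laminin, yet Nid2 did not follow Nid1: its WT Scl+ against WT Scl- difference was -0.07 log units (SE 0.14). The perlecan difference was 0.18 (SE 0.15).

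The alpha chains Lama1 and Lama4 took different courses. Lama1, the alpha chain of the first embryonic laminin, was at 5.88 and 5.83 in SclKO, 5.20 and 4.79 in WT Scl+, and 5.52 and 5.18 in WT Scl-. Both SclKO arrays lay above all 4 WT arrays, by 0.86 log units over WT Scl+ (SE 0.20, limma adjusted p = 0.179) and by 0.50 over WT Scl- (SE 0.20, limma adjusted p = 0.884), or 0.33 without WT Scl- replicate 2. Lama4, an alpha chain of endothelial basement membranes, was at 7.07 and 7.06 in SclKO, 7.93 and 7.51 in WT Scl+, and 7.42 and 7.63 in WT Scl-. SclKO lay below all 4 WT arrays, by mean at -0.65 log units against WT Scl+ (SE 0.19, limma adjusted p = 0.245) and -0.46 against WT Scl- (SE 0.19, limma adjusted p = 0.884). A second Lama4 probe set gave -1.25 and -1.08 for the same comparisons.

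Col4a6 was above the dim limit in SclKO alone. It encodes a collagen IV chain that pairs with the product of its neighbour Col4a5 in selected basement membranes. Col4a6 was at 5.85 and 5.47 in SclKO, 4.07 and 2.62 in WT Scl+, and 3.76 and 3.76 in WT Scl-. All 4 WT arrays were dim and both SclKO arrays were not, so it passed the filter through SclKO alone and its test supports nothing here. With dim values set to the limit, SclKO exceeded WT Scl+ by 1.11 and WT Scl- by 1.08 log units, or at least 2.15-fold and 2.11-fold on the log2 reading. As measured, on dim WT values, these were 2.32 and 1.90 log units. A second Col4a6 probe set was at 5.96 and 4.50 in SclKO, with replicate 2 dim, and was dim on all WT arrays. Col4a5 differed less, at 5.89 and 5.65 in SclKO, 5.85 and 5.58 in WT Scl+, and 5.33 and 5.60 in WT Scl-, with SclKO overlapping WT Scl+ and just above WT Scl-. The pair is transcribed in opposite directions from X-chromosome starts 1343 bases apart. Their windows are shown because this pair of neighbours differed in level pattern: Col4a6 (chrX:141474077-141474326, minus strand) and Col4a5 (chrX:141475169-141475418, plus strand), with GC boxes, and an E-box in Col4a5, in capitals.
Col4a6: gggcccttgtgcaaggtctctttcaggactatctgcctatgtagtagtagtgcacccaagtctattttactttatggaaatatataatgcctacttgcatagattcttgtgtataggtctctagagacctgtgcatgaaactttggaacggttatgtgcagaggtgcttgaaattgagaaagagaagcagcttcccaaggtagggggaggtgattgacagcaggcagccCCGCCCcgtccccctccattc
Col4a5: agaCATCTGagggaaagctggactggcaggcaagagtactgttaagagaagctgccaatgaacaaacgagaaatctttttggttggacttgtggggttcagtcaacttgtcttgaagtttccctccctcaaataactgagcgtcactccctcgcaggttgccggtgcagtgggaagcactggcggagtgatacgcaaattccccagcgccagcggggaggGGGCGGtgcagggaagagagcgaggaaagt
Each window holds 1 GC box, and CANNTG occurs once, as CATCTG near the far end of the Col4a5 window. The 6 markers of undifferentiated ES cells averaged 6.56 and 6.40 in SclKO, 6.80 and 5.57 in WT Scl+, and 5.86 and 5.72 in WT Scl-. Their 5 tested genes were all positive for SclKO against WT Scl- (54.0% of all genes were), with a median of 0.80 log units. For SclKO against WT Scl+ 4 of 5 were positive (55.5% of all genes were), with a median of 0.57. Their part in the SclKO differences of the matrix genes was not tested.

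Among fibrillar collagens, Col1a1 and Col1a2, the chains of collagen I, did not vary as a pair. Col1a1 was at 9.14 and 7.47 in SclKO, 8.95 and 7.63 in WT Scl+, and 10.16 and 9.17 in WT Scl-. Both WT Scl- arrays lay above the other 4, replicate 2 only just, and the replicates of SclKO and of WT Scl+ were far apart. Col1a1 differed by -1.38 log units for WT Scl+ against WT Scl- (SE 0.68, limma adjusted p = 0.621) and by -1.37 for SclKO against WT Scl- (SE 0.68, limma adjusted p = 0.93). The first was -0.72 without WT Scl+ replicate 2 and -0.89 without WT Scl- replicate 1, and the second -0.53 without SclKO replicate 2. Col1a2 was at 7.17 and 7.16 in SclKO, 6.63 and 6.62 in WT Scl+, and 6.73 and 6.95 in WT Scl-, so SclKO lay above both WT groups for this chain, by 0.54 (SE 0.15) and 0.32 log units (SE 0.15). A second Col1a2 probe set gave 0.11 for SclKO against WT Scl+, with overlap, and the mean of both gave 0.33.

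Col5a1, a chain of the collagen V that starts fibril growth, was at 7.95 and 8.04 in SclKO, 7.19 and 7.69 in WT Scl+, and 7.67 and 7.66 in WT Scl-. SclKO lay above both WT groups, by 0.55 (SE 0.20) and 0.33 log units (SE 0.20), and the first was 0.30 without WT Scl+ replicate 1. Its partner Col5a2 was at 5.48 and 4.47 in SclKO, 4.83 and 4.06 in WT Scl+, and 3.72 and 4.21 in WT Scl-, with 4 of the 6 arrays dim. The SclKO minus WT Scl- difference of 1.01 log units for Col5a2 became 0.45 with dim values set to the limit and 0.50 without SclKO replicate 1. Col2a1, the main collagen of cartilage and notochord, was at 6.32 and 6.52 in SclKO, 5.80 and 4.71 in WT Scl+, and 5.78 and 5.98 in WT Scl-. SclKO lay above all 4 WT arrays, by 1.16 log units over WT Scl+ (SE 0.35, limma adjusted p = 0.25), 0.62 without WT Scl+ replicate 2, and by 0.54 over WT Scl- (SE 0.35).

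Some non-fibrillar collagens had their lowest group mean in WT Scl+. Col9a1, a collagen that decorates the surface of fibrils, was at 5.38 and 5.29 in SclKO, 4.69 and 4.58 in WT Scl+, and 6.25 and 6.05 in WT Scl-. The 3 groups did not overlap, with SclKO in the middle, but both WT Scl+ arrays lay just above the dim limit. A second Col9a1 probe set was dim on every array, and there SclKO overlapped WT Scl+. Col9a1 differed by -1.51 log units for WT Scl+ against WT Scl- (SE 0.15, 2.86-fold or 4.55-fold, limma adjusted p = 0.399), by 0.70 for SclKO against WT Scl+ (SE 0.15, limma adjusted p = 0.17) and by -0.81 for SclKO against WT Scl- (SE 0.15, limma adjusted p = 0.81). Col9a2, another chain of collagen IX, differed by 0.37 log units for WT Scl+ against WT Scl- (SE 0.15), the opposite sign.

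Col23a1, a membrane-spanning collagen, was at 6.67 and 6.14 in SclKO, 5.94 and 4.58 in WT Scl+, and 6.80 and 6.63 in WT Scl-. Its WT Scl+ replicate 2 was just above the dim limit. Both WT Scl+ arrays lay below the others, by mean at -1.45 log units against WT Scl- (SE 0.44, limma adjusted p = 0.439), at -0.77 without WT Scl+ replicate 2, and at -0.88 over the mean of its probe sets. Tnc, the anti-adhesive glycoprotein tenascin-C, was at 8.03 and 7.56 in SclKO, 7.31 and 6.51 in WT Scl+, and 7.85 and 8.08 in WT Scl-. WT Scl+ was again lowest, at -1.06 log units against WT Scl- (SE 0.30, limma adjusted p = 0.418), and -0.66 without WT Scl+ replicate 2. For SclKO against WT Scl+ the differences were 1.14 (SE 0.44) for Col23a1 and 0.89 (SE 0.30) for Tnc, and 0.46 and 0.49 without WT Scl+ replicate 2. Over the mean of probe sets Col23a1 gave 0.75.

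Markers of the primitive streak, the site where mesoderm forms, were also lowest in WT Scl+. The markers read were Mixl1, Eomes, Mesp1 and Evx1, while the gene T was on the list but was not matched by symbol. These 4 markers averaged 10.39 and 10.31 in SclKO, 8.84 and 7.94 in WT Scl+, and 10.28 and 9.86 in WT Scl-. Like Col23a1, Tnc, Col2a1 and Lama1, they were lowest on WT Scl+ replicate 2. Their part in the matrix values was not tested.

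Col13a1 and Col14a1 stood higher in SclKO than in either WT group. Col13a1, a membrane-spanning collagen of adhesion sites, was at 8.16 and 9.05 in SclKO, 7.63 and 7.64 in WT Scl+, and 7.95 and 7.92 in WT Scl-. Col14a1, which regulates fibril diameter, was at 5.42 and 6.11 in SclKO, 4.50 and 5.13 in WT Scl+, and 4.59 and 5.19 in WT Scl-. SclKO replicate 2 was the higher array for both, and neither gene's SclKO arrays overlapped the WT arrays. Col13a1 differed by 0.97 log units from WT Scl+ and 0.66 from WT Scl- (SE 0.29 each), or 0.53 and 0.22 without SclKO replicate 2. Col14a1 differed by 0.94 and 0.88 (SE 0.34 each), or 0.60 and 0.53 without SclKO replicate 2. Its 3 tested probe sets gave 0.88 to 1.71 against WT Scl-. The 6 mesenchyme and smooth muscle markers averaged 7.01 and 6.85 in SclKO, 6.71 and 6.22 in WT Scl+, and 6.81 and 6.59 in WT Scl-, and their part was not tested.

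Fn1 and Sparc differed between groups by less than 1 log unit. Fn1, the fibronectin on which mesoderm migrates, was at 12.36 and 12.22 in SclKO, 11.95 and 11.98 in WT Scl+, and 12.24 and 12.27 in WT Scl-. WT Scl+ lay below both other groups, at -0.29 log units against WT Scl- (SE 0.14, limma adjusted p = 0.616), and at -0.46 over the mean of its probe sets. Sparc, a matricellular protein that binds collagen, was at 11.44 and 11.28 in SclKO, 11.85 and 12.18 in WT Scl+, and 11.82 and 12.05 in WT Scl-. SclKO lay below all 4 WT arrays, at -0.65 log units against WT Scl+ (SE 0.18, limma adjusted p = 0.234) and -0.57 against WT Scl- (SE 0.18, limma adjusted p = 0.884). Sparc lies on chromosome 11, as do Col1a1 and Col23a1. The 1124 tested genes of that chromosome had a median difference of -0.146 log units for SclKO against WT Scl+, and of -0.154 against WT Scl-. The medians of the other autosomes lay between 0.035 and 0.084, and between 0.011 and 0.06. The part of this chromosome-wide shift in Sparc was not tested.

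Across the whole group, 0 of 46 tested members passed at a limma adjusted p under 0.05 in WT Scl+ against WT Scl-, where 0.0% of all genes did. The lowest limma adjusted p among members was 0.399. At an unadjusted p under 0.05, 4 members were higher (8.70%, against 5.4% of all genes) and 3 lower (6.52%, against 3.74%). The share on the higher side leaned on WT Scl+ replicate 2. WT Scl+ arrays lay wholly above WT Scl- for 11 members (23.9%, against 18.9% of all genes) and wholly below for 8 (17.4%, against 18.5%), both near the background. Differences were positive for 27 members (58.7%, against 46.1% of all genes), with a median of 0.05 log units, against -0.02 over all genes. By role, 7 of 9 laminins and all 3 hyaluronan matrix genes were positive, and 4 of 6 fibrillar collagens were negative. The laminin median was 0.10 log units, and Lamb1 counts as positive through its brightest probe set alone. Besides the genes above, Col15a1 lay higher without overlap (0.32, SE 0.16, and 0.16 with dim values set to the limit), and Col6a2 (-0.35, SE 0.18), Col13a1 (-0.30, SE 0.29) and Col1a2 (-0.22, SE 0.15) lower. Col6a2 gave -0.18 without WT Scl+ replicate 2, and Col1a2 gave 0.13 on its second probe set, with overlap. Without WT Scl+ replicate 1, which leaves the array that stood apart as the only one of its group, 2 members passed, Col9a1 and Col23a1, among 203 genes.

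In SclKO against WT Scl+, which sets Flk1+ cells of the knockout line beside reporter-positive cells, 0 of 46 members passed, against 0.00774% of all genes (1 gene). Leaving out Col4a6, the lowest adjusted p among members was 0.17, for Col9a1. At an unadjusted p under 0.05, 10 members were higher (21.7%, against 7.16% of all genes) and 7 lower (15.2%, against 6.8%). The lower share leaned on WT Scl+ replicate 2 and on both SclKO arrays. The higher share also fell, but by less, without any of these arrays. SclKO arrays lay wholly above WT Scl+ for 16 members (34.8%, against 23.2%) and wholly below for 11 (23.9%, against 20.2%). Col4a6 is among the 10 and the 16, which are 9 and 15 of 45 without it. The median difference was 0.04 log units, the same as over all genes. Differences were positive for 5 of 6 fibrillar and 6 of 8 fibril-associated collagens, and negative for all 3 hyaluronan matrix genes. Over all genes 55.5% were positive. Without WT Scl+ replicate 1, Col2a1, Col23a1 and Lama1 passed among 699 genes, as did Col4a6 on its dim WT values.

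In SclKO against WT Scl-, which sets the same knockout cells beside WT cells without the reporter, 0 of 46 members passed, against 0.00774% of all genes (1 gene). The lowest adjusted p among members was 0.81, and 4 members on the higher side (8.70%, against 3.14%) and 2 on the lower (4.35%, against 2.38%) had an unadjusted p under 0.05. SclKO arrays lay wholly above WT Scl- for 17 members (37.0%, against 22.9% of all genes) and wholly below for 7 (15.2%, against 18.7%). Col4a6 is again among the 4 and the 17, which are 3 and 16 of 45 without it. Col5a2, dim on both WT Scl- arrays, is still among the 3 and the 16. Differences were positive for 31 members (67.4%, against 54.0% of all genes), with a median of 0.13 log units, against 0.02 over all genes. Without WT Scl- replicate 1 they were positive for 25, with a median of 0.06. Col12a1 (0.42, SE 0.26) and Col16a1 (0.33, SE 0.16), both fibril-associated, were also higher without overlap, and Col6a2 (-0.39, SE 0.18), Lama3 (-0.23, SE 0.17, and -0.13 with dim values set to the limit) and Col22a1 (-0.12, SE 0.20) lower. Without SclKO replicate 2, Col12a1 gave 0.11, Lama3 -0.10 and Col22a1 -0.06. Of 25 members with several tested probe sets, all sets of a gene had the same sign for 20 in WT Scl+ against WT Scl-, 19 in SclKO against WT Scl+ and 17 in SclKO against WT Scl-.

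**Figure D3:**
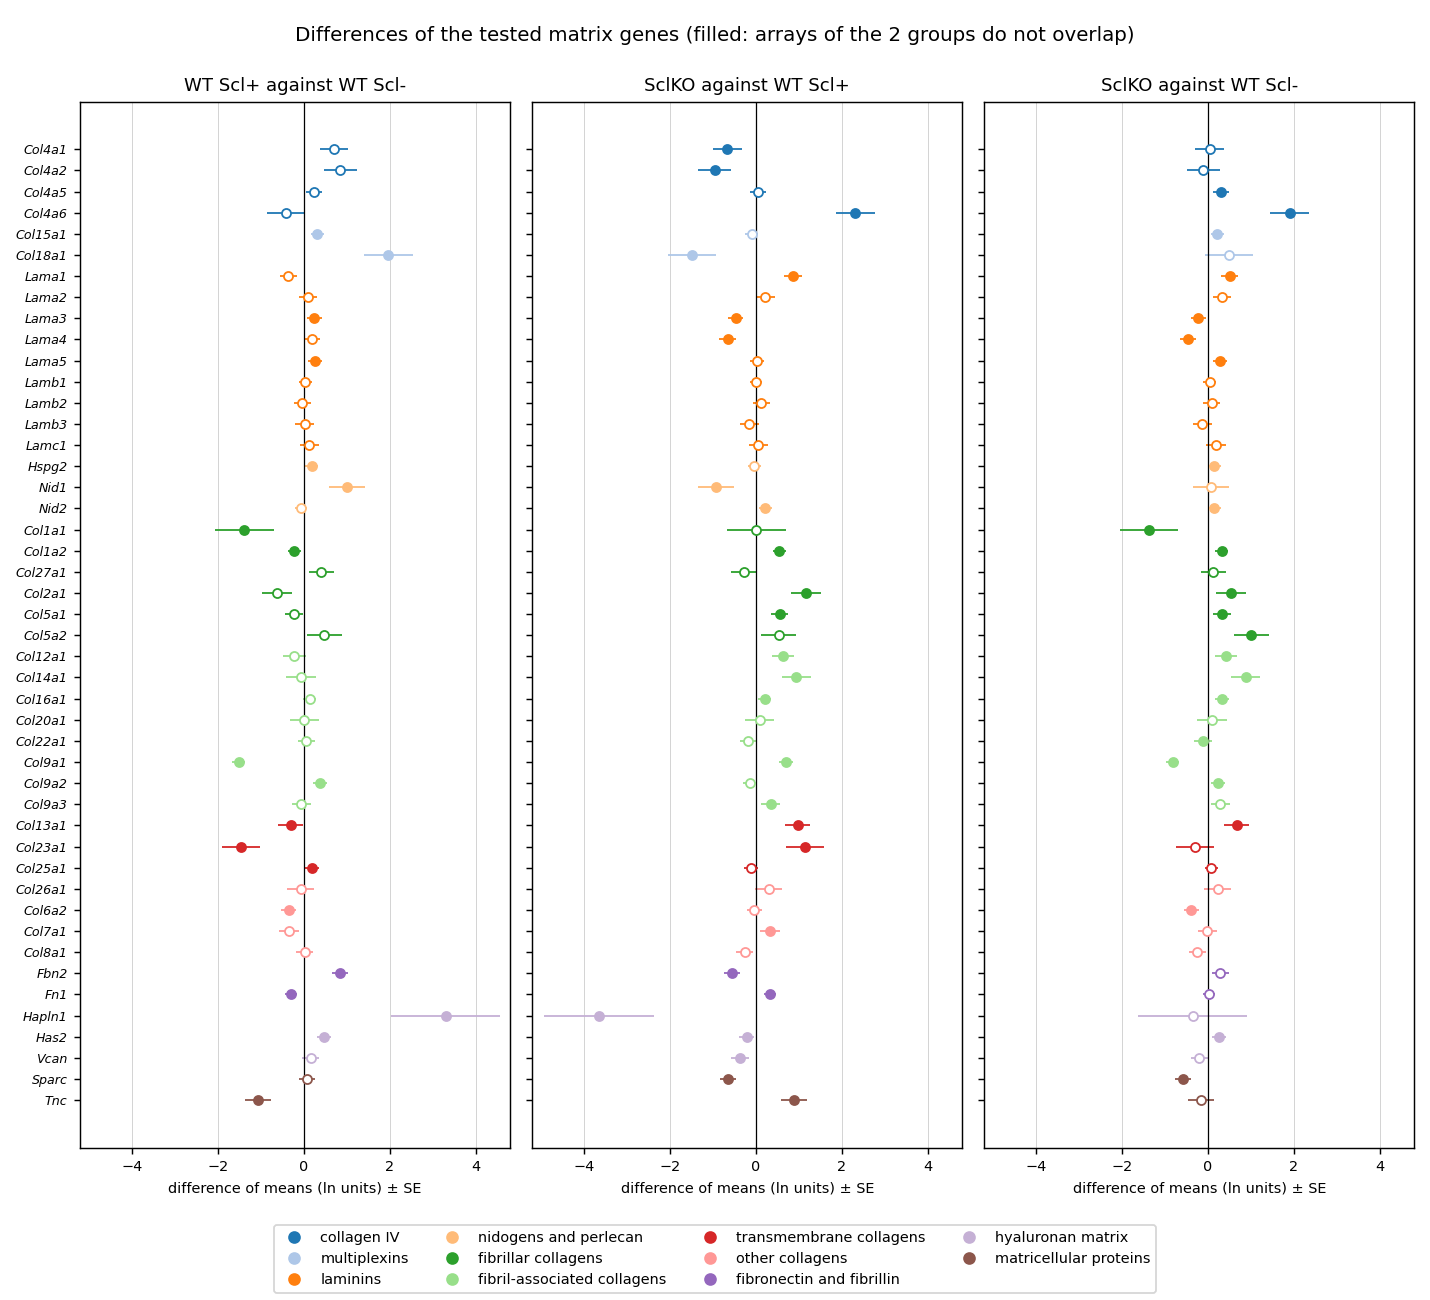
Difference of each tested member in the 3 comparisons (difference of means in natural log units, with SE bars), coloured by role and filled where the arrays of the 2 groups do not overlap. No member passed the adjusted test; Hapln1 has the widest bar, and Col4a6, far right in both SclKO comparisons, rests on dim WT values.

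The 17 members dropped by the filter had a second-highest array that lay at -2.14 to -0.04 log units from the limit. Just inside it were Lamb3 and Col15a1, 0.10 and 0.12 log units above it, and just outside were Col19a1 and Col6a1, at -0.04 and -0.15. Among named members, Col3a1, the collagen of elastic connective tissue, and Postn, a matricellular protein of heart valves and bone, were dim on all 6 arrays.

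Genes that make, bind or cut the matrix were taken from lists drawn up by function, with earlier results of these data known. None passed the adjusted test. The list of matrix breakdown also holds the protease inhibitors Timp1, Timp2 and Timp3. Of its 17 tested genes, 16 were positive for SclKO against WT Scl+, where 55.5% of all genes were. Their median was 0.34 log units. SclKO arrays lay wholly above WT Scl+ for 9 of them, where 23.2% of all genes did. Timp1 (0.27) and Timp2 (0.27) are among the 16, and Timp3 (-0.04) is not. Against WT Scl- 15 of 17 were positive (54.0% of all genes), with a median of 0.28 log units. Timp3 (0.59) and Timp1 (0.13) are among the 15, and Timp2 (-0.15) is not. For WT Scl+ against WT Scl- 7 of 17 were positive (46.1% of all genes), with a median of -0.08. Mmp9, a gelatinase that cuts collagen IV, was at 7.58 and 8.16 in SclKO, 6.92 and 6.66 in WT Scl+, and 6.33 and 7.36 in WT Scl-. Mmp14, a membrane-anchored collagenase, was at 7.88 and 8.12 in SclKO, 7.16 and 7.49 in WT Scl+, and 7.28 and 7.33 in WT Scl-. For both, the SclKO arrays lay above all 4 WT arrays. Adamts9, which cuts versican, differed by 0.84 log units for SclKO against WT Scl+ (SE 0.15, limma adjusted p = 0.131) and by -0.56 for WT Scl+ against WT Scl-. Timp3, a matrix-bound protease inhibitor, differed by 0.64 log units for WT Scl+ against WT Scl- (SE 0.25), by 0.29 without WT Scl+ replicate 1 and by 0.23 over the mean of its probe sets.

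The 21 tested genes of collagen maturation and the 21 of matrix receptors had medians between -0.08 and 0.10 log units in all 3 comparisons. In the first list P3h2, a prolyl 3-hydroxylase of basement membrane collagens, was at 8.64 and 8.58 in SclKO, 7.41 and 6.46 in WT Scl+, and 8.93 and 8.18 in WT Scl-. It was lowest in WT Scl+, whereas Col4a1 and Col4a2 had their highest means there. P4ha2, a prolyl 4-hydroxylase subunit on chromosome 11, differed by -0.90 log units for SclKO against WT Scl- (SE 0.14, limma adjusted p = 0.797). Tll1, a tolloid protease that trims procollagen, differed by 1.04 for SclKO against WT Scl+ (SE 0.43), or 0.42 without WT Scl+ replicate 2. Loxl4, of the lysyl oxidase family that cross-links collagen, differed by 0.69 for SclKO against WT Scl- (SE 0.25), or 0.38 over the mean of its probe sets. Among receptors, Itga1, a collagen-binding integrin chain, differed by 1.08 for SclKO against WT Scl+ (SE 0.37), or 0.52 without WT Scl+ replicate 2. For WT Scl+ against WT Scl- the laminin-binding chain Itga6 gave -0.81 and Itgb5, a chain of a vitronectin receptor, -0.63 (SE 0.21), or -0.38 and -0.41 without WT Scl+ replicate 2. Itga5, of the fibronectin receptor, differed by 0.35 for SclKO against WT Scl- (SE 0.15), or 0.23 without SclKO replicate 1. Itga8 differed by 2.05 for SclKO against WT Scl+ (SE 0.81), and by 0.92 without WT Scl+ replicate 2.

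Of 36 other matrix proteins tested, 21 were positive for SclKO against WT Scl+, 16 against WT Scl-, and 15 for WT Scl+ against WT Scl-. Over all genes the shares were 55.5%, 54.0% and 46.1%. The list had medians of 0.05, -0.02 and -0.11 log units. Tgfbi, a secreted protein that binds collagens and integrins, was at 7.02 and 7.10 in SclKO, 5.07 and 4.23 in WT Scl+, and 4.66 and 5.68 in WT Scl-. Both SclKO arrays lay far above the WT arrays, by 2.41 log units over WT Scl+ (SE 0.40, limma adjusted p = 0.131) and 1.89 over WT Scl- (SE 0.40, limma adjusted p = 0.81). Fbln1, a fibulin of basement membranes and elastic fibres, differed by -0.95 for WT Scl+ against WT Scl- (SE 0.28) and by 1.13 for SclKO against WT Scl+ (SE 0.28). These were -0.56 and 0.74 without WT Scl+ replicate 2, and -0.48 and 0.58 over the mean of its probe sets. Mfap4, a microfibril-associated protein encoded on chromosome 11, differed by -0.86 for WT Scl+ against WT Scl- (SE 0.15). Matn2, a matrilin that links matrix filaments, differed by -0.43 for SclKO against WT Scl- (SE 0.67), or -0.25 over the mean of its probe sets.

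**Figure D4:**
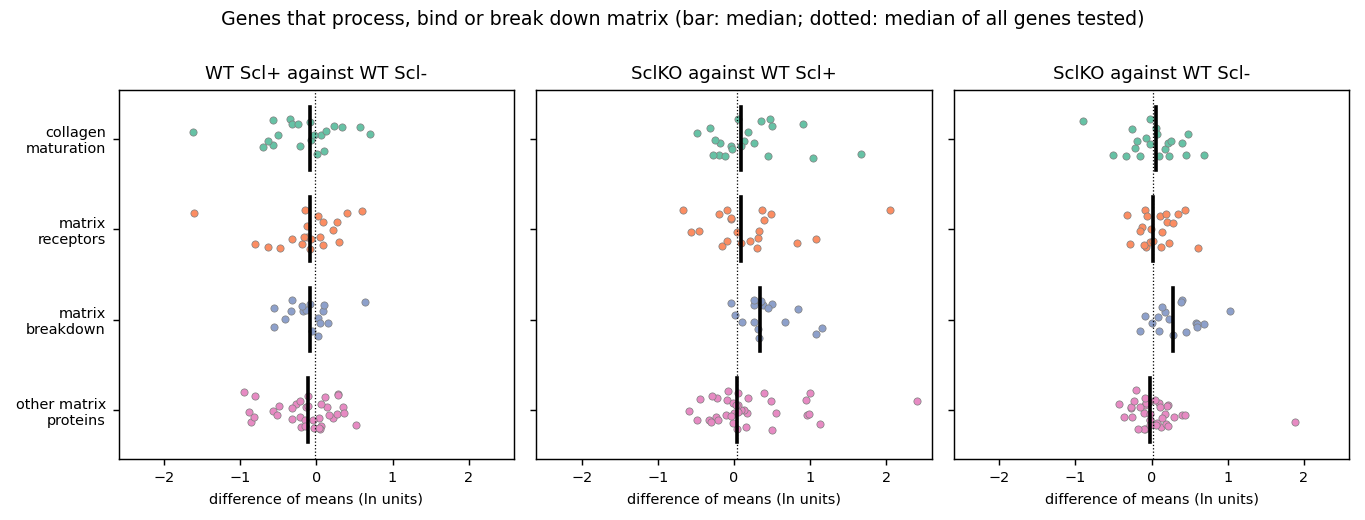
Differences of the tested genes in each pathway list (natural log units, 1 point per gene), for the 3 comparisons, with list medians marked. Matrix breakdown genes, a list that includes Timp protease inhibitors, lie mostly right of 0 for SclKO against WT Scl+, with a median of 0.34. The other lists have medians near 0.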

How the data were processed

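RNA of 6 samples was measured on Affymetrix mouse genome arrays. RMA, affy and limma (versions not stated) were the authors' tools, as listed in the submitters' processing notes. The deposited values are on an unstated, non-log scale (unit other than a standard one, from 3.256 to 2822995), so their natural log was taken. Reading that log as log2 or the values as linear changes every difference by a factor of 1.44 and no test. Symbols came from the platform's annotation, updated through Entrez identifiers, and promoters from RefSeq tables of GRCm38.p6. No protein sequences or genome were used here.

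Each gene was read by the probe set whose mean over all arrays was highest. A gene was tested if it exceeded the 40th percentile of its array on at least 2 arrays. A mean per group was fitted with limma 3.58.1 in R 4.3.3 to all 6 arrays (residual degrees of freedom 3, prior 3.15), and two-sided tests were corrected by the Benjamini-Hochberg method across 12923 genes. The fit was tested on simulated data. Array data have no read depth, and 2 arrays a group limit the precision. Members, pathway and marker lists were chosen with earlier results of these data known. Members were named by role, and as the 8 largest positive and negative differences without overlap per comparison. From each pathway list the 2 largest differences without overlap were named. Alternatives were other filters, normalizations, probe set rules and variance models, a replicate block, and leaving out each array.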

Additional observations from a re-analysis of the deposited data

How the results depend on the processing

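Of 77 named differences under 16 alternatives, none changed sign. Most were named because their arrays do not overlap, so leaving out 1 array could not turn their sign. The filters, the replicate block and the variance models leave the difference itself unchanged. The lack of sign changes is therefore no measure of stability. In all, 1202 values kept their side of the threshold and 13 passed it, each without WT Scl+ replicate 1. That setting leaves 1 array in WT Scl+, assumed to vary like the other groups. Members passing then numbered 2 in WT Scl+ against WT Scl- and 4 in SclKO against WT Scl+, so that leaving out single arrays gave 0 to 2, 0 to 4 and 0 to 0 members in the 3 comparisons. Over all genes the limma calls were 203 and 699 without that array. For SclKO against WT Scl+, where 1 gene was called, fitting only the 4 arrays compared gave 49 genes, a mean trend with robust variance 19, the stricter filter 9, dim values at the limit 7 and the mean of probe sets 3. Leaving out either WT Scl- array is the same test for this comparison as fitting the 4 arrays, since a single array adds nothing to the spread. For SclKO against WT Scl- these counts were 0, 3, 2, 2 and 3, and 0 without either WT Scl- array. The cause was not tested.

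Replicate deviations correlated at 0.25 between each pair of groups, but with 2 numbers a group and no stated pairing the arrays share only a number. With the replicate block 0 members passed in each comparison, and 0, 3 and 1 of all genes, against 0, 1 and 1 without it. The leave-one-out counts over members, and the counts without Col4a6, were chosen after the data were seen. With 2 arrays a group, differences below the spread between arrays were not detectable, and dim values bound only one side.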
